A study of Mus musculus with 8 samples.

Results

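The 39 genes described here belong to the integrated stress response and the unfolded protein response, and they were taken by symbol from the 24060 rows of a table of read counts per gene, in which each had a row. Of these, 24 are amino acid or stress genes and 15 are chaperone genes of the endoplasmic reticulum (ER) with their signalling and degradation partners. The tissue was dissociated lumbar dorsal root ganglia (L4 to L6) of mice whose sciatic nerve had been crushed on 1 side 3 days earlier. The 4 injury libraries come from ganglia on the crushed side and the 4 naive libraries from uninjured ganglia, and the design text says that both kinds were taken from each of 4 mice. The sources used here give no strain, age, sex, allele or agent for either group. Libraries were made with QuantSeq 3′ mRNA-seq REV, in which a read marks the 3′ end of a polyadenylated RNA. Dissociated ganglia hold neurons, glia, vessel cells and immune cells together, so fewer cells of a type and less RNA per cell cannot be told apart.

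In the integrated stress response, kinases that sense amino acid shortage, ER stress, viral RNA or haem shortage phosphorylate the translation factor eIF2α, which lowers general protein synthesis and favours translation of the transcription factor ATF4. ATF4, with C/EBP partners and CHOP, raises genes for amino acid synthesis, amino acid import and tRNA charging. The unfolded protein response shares its PERK arm with that pathway, while its IRE1 and ATF6 arms raise ER chaperones and degradation factors through XBP1 and cleaved ATF6. Both programmes are known in sensory neurons, which translate locally in their axons and must supply membrane and secreted proteins over long distances.

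The promoters of both kinds of member are shown first because each group is known for its own promoter element. RefSeq promoter windows (GRCm38.p6, 250 bases before to 50 after a gene's start) were matched for 34 of the 39 members. Slc7a5, Cth, Ppp1r15b, Manf and Slc7a3 had none. Both strands were searched, and positions count from the gene's start, with negative numbers before it. The letters TGATGNAA, the core of the C/EBP-ATF element that ATF4 dimers bind, stood in the windows of 7 of 20 amino acid or stress genes, of 1 of 14 chaperone genes and of 4.51% of the 26994 genes with a window. The ER stress element, CCAAT and CCACG with 9 free bases between them, stood in 0 of 20 amino acid or stress genes, 7 of 14 chaperone genes and 0.137% of all genes. Both elements are known from promoters of such genes, so their presence there is no independent result. A match describes letters, and binding was not measured.

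The ER stress element matches are given in the direction of the motif, with its fixed letters in capitals and 4 flanking bases on each side. All 7 genes belong to the chaperone group, and none of them passed the test for injury described below.
Calr, base -162 to -144: tgggCCAATgagggtcgaCCACGcgtt
Creld2, base -126 to -108: tggaCCAATtgaggctcgCCACGagaa
Dnajc3, base -105 to -87: acaaCCAATcagcgccaaCCACGaccc
Hsp90b1, base -212 to -194: aagcCCAATcgcaaggagCCACGcttc
Hsp90b1, base -107 to -89: ctcaCCAATcgtgcctcaCCACGcact
Hspa5, base -65 to -47: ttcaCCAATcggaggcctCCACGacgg
Pdia6, base -98 to -80: gagaCCAATgaaaggcggCCACGgcgt
Syvn1, base -44 to -26: gcaaCCAATcggcggtagCCACGggaa

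The C/EBP-ATF core matches are written the same way. Asns and Chac1 are the members among them that were called higher by the test for injury described below. Of 7 called members with a window, 2 held the core, beside 7 of all 20 amino acid or stress genes with a window.
Asns, base -23 to -16: cacaTGATGaAActtc
Chac1, base -193 to -186: ggagTGATGcAAcggc
Herpud1, base -112 to -105: gggcTGATGcAAcccg
Nupr1, base -110 to -103: tgtcTGATGcAAtctg
Pycr1, base -103 to -96: tgtaTGATGcAAtgca
Slc7a11, base -66 to -59: tggcTGATGcAAacct
Slc7a11, base -47 to -40: atgaTGATGcAAattc
Trib3, base 15 to 22: cggcTGATGtAAacct
Vldlr, base -200 to -193: gcgcTGATGcAActat

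Whole windows are shown for the clearest rise, Chac1, for the asparagine enzyme Asns, and for the chaperones Hspa5 and Hsp90b1, with the fixed letters of any match in capitals. Chac1 lies at chr2:119350992-119351291 (plus strand), Asns at chr6:7693160-7693459 (minus strand), Hspa5 at chr2:34771840-34772139 (plus strand) and Hsp90b1 at chr10:86705395-86705694 (minus strand), each written 5′ to 3′ along the gene. Hsp90b1 holds the ER stress element in both directions.
Chac1: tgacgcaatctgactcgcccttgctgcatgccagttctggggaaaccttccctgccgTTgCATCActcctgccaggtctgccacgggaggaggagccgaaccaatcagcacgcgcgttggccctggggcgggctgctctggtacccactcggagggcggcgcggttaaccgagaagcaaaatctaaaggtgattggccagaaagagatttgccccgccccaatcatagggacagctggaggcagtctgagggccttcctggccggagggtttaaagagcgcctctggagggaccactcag
Asns: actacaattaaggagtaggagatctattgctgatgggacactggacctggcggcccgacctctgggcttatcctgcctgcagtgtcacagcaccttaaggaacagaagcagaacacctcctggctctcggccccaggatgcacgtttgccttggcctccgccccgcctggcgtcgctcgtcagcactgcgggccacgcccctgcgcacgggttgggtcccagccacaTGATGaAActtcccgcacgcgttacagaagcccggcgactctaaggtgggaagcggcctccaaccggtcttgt
Hspa5: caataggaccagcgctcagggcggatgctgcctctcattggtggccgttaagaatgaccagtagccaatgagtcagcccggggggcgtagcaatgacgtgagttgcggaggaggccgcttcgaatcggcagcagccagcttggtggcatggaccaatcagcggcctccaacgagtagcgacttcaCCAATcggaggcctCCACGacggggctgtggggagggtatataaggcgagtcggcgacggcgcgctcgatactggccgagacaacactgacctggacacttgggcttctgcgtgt
Hsp90b1: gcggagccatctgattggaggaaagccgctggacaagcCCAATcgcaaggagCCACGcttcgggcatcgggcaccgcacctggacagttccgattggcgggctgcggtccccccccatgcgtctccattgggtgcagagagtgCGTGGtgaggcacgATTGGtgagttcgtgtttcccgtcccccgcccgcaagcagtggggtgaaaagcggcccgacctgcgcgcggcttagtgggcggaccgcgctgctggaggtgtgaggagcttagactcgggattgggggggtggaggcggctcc

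The cAMP response element TGACGTCA, which overlapped none of the other matches, stood in the window of Ppp1r15a alone among the members, against 2.03% of all genes. The unfolded protein response element TGACGTGG stood in no member window and in 0.715% of all genes.

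**Figure D1:**
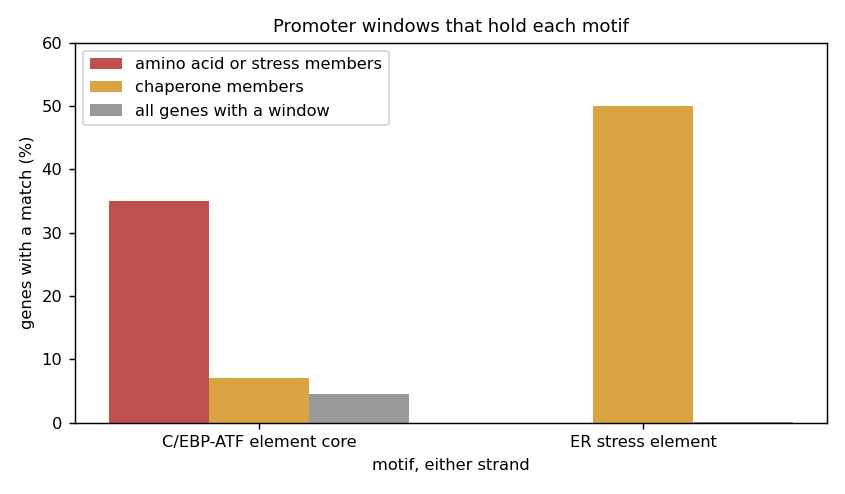
Percent of genes whose promoter window holds each motif on either strand (vertical axis), for the 20 amino acid or stress members, the 14 chaperone members and the 26994 genes with a window. The C/EBP-ATF core was found in 7 of 20 and 1 of 14 members, and the ER stress element in 0 of 20 and 7 of 14.

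Gene counts summed to between 16539644 and 28950551 per library. Values below are CPM, a gene's count scaled to its library's tested counts after TMM scaling (trimmed mean of M values), given as mean ± SD with n = 4 per group. A gene is called where edgeR's quasi-likelihood test gives a Benjamini-Hochberg adjusted p under 0.05 over 13770 tested genes. Of these, 17.8% were called, 10.1% higher and 7.75% lower in injury. The axotomy marker Atf3 checked the labels, with 49.1 to 67.3 CPM in the naive and 309.1 to 373.2 CPM in the injury libraries. Sensory neuron markers (10 genes) summed to 15900 to 16600 CPM in naive and 16900 to 20700 CPM in injury libraries. Macrophage markers (10 genes, none at 0) summed to 12.4 to 25.2 and 42.7 to 66.8 CPM, and neutrophil markers (6 genes, none at 0) to 367 to 1270 and 131 to 460 CPM. Dissociation-induced genes (13, none at 0) overlapped, with 2300 to 2570 and 2150 to 2780 CPM. The part of these cell shifts in the results below was not tested.

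Many amino acid and stress genes rose after the crush, and none of them was called lower. Of the 24, 22 passed the filter on low counts and 9 were called higher: Chac1, Mthfd2, Psat1, Asns, Slc7a5, Ddit3, Slc7a1, Sesn2 and Slc7a3. That is 40.9% of the 22 called higher, beside 10.1% higher and 7.75% lower among all tested genes. The log2 fold changes of the 22 had a median of 0.51, against -0.02 over all tested genes. Sesn2 passed the filter through its injury libraries alone, and Cth and Nupr1 reached the filter level in 3 of 4 naive libraries; over the other 19 genes, 8 were called and the median was 0.40. With TMM scaling, every injury library stood above every naive one for 11 of the 22 and below for 1, against 12.6% and 10.8% of all tested genes. The 11 include Cth and Sesn2, and for Sesn2 the filter itself required this separation.

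**Figure D2:**
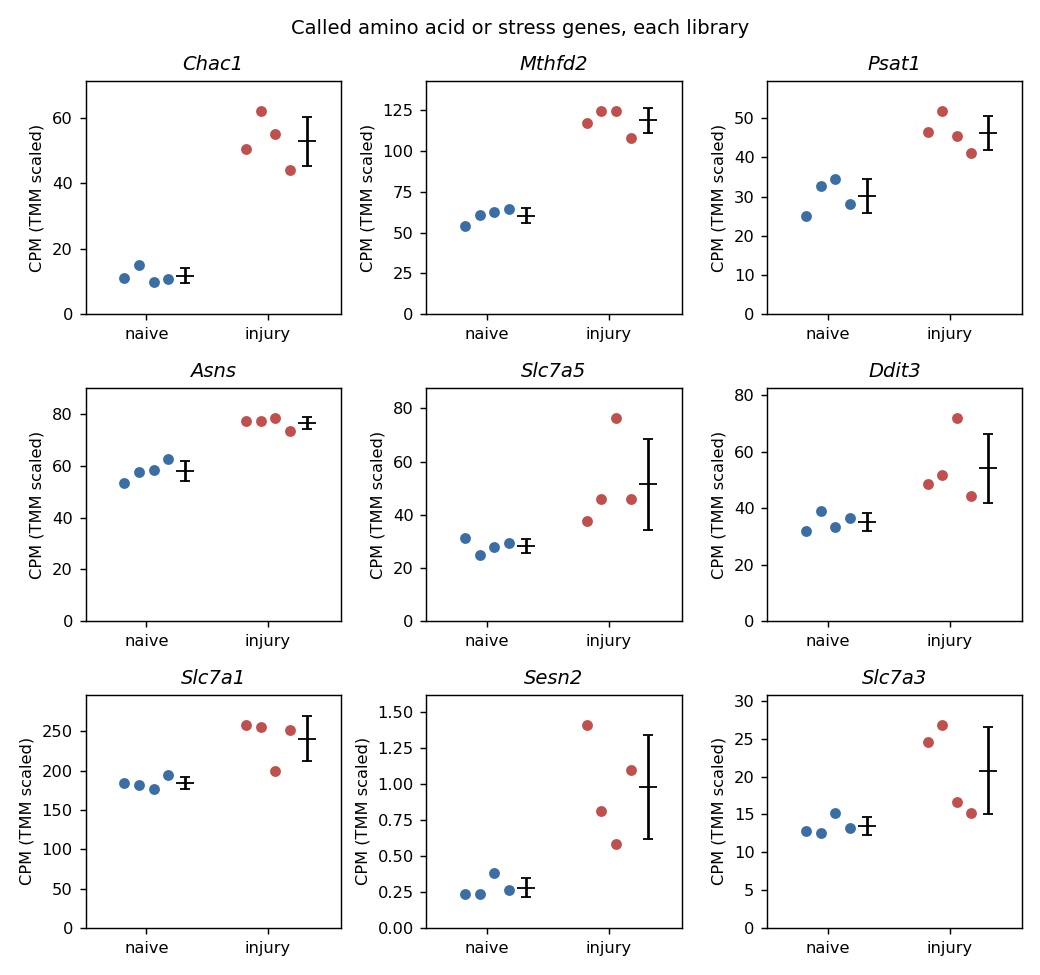
CPM after TMM scaling (vertical axis, linear from 0) of the 9 called members in each of the 4 naive (blue) and 4 injury (red) libraries, in library order from left to right, with mean and SD in black. In each panel the injury libraries lie above the naive ones, widely for Chac1 (44.1 to 61.9 against 10.01 to 15.1 CPM) and narrowly for Slc7a3, where injury 4 and naive 3 both round to 15.2 CPM. For Sesn2 the filter on low counts required this separation.

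Chac1, whose product breaks down glutathione and which is a target of ATF4 and CHOP, showed the largest rise of the 39 genes (GRCm38 chromosome 2, 119351229 to 119354381). It stood at 11.1, 15.1, 10.01 and 10.7 CPM in naive 1 to 4 and at 50.5, 61.9, 54.9 and 44.1 CPM in injury 1 to 4. The lowest injury library was far above the highest naive one. The log2 fold change was 2.173 (SE 0.16, 95% interval 1.84 to 2.51, adjusted p = 1.24e-06).

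Ddit3, the gene for the transcription factor CHOP, rose less. It stood at 31.9, 38.9, 33.3 and 36.6 CPM in naive 1 to 4 and at 48.5, 51.7, 71.8 and 44.3 CPM in injury 1 to 4 (log2 fold change 0.62, SE 0.15, adjusted p = 0.0109). The groups did not overlap, and injury 3 stood well above the other injury libraries; without it the log2 fold change was 0.46 (adjusted p = 0.012). GENCODE marks Ddit3 as an overlapping locus, and the sources used here do not say how reads of overlapping genes were counted.

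Sesn2, a leucine-sensing restraint on the growth kinase complex mTORC1, was scarce in every library. It went from 0.281 ± 0.069 to 0.978 ± 0.361 CPM, or 1.79 as a log2 fold change (SE 0.51, adjusted p = 0.0283). All injury libraries lay above the naive ones, from 0.580 to 1.41 against 0.238 to 0.383 CPM. No naive library of Sesn2 reached the filter level, so passing the filter already required this separation before TMM scaling. The call was lost in the fit paired by replicate number (adjusted p = 0.0628). That a number marks a mouse is an assumption. The call was also lost with limma-voom (0.0505), without the low count filter (0.0676) and without naive 2, injury 2 and injury 3 together (0.0723). Leaving out any single library except injury 3 ended it as well (0.0533 to 0.0962).

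Other stress genes did not pass the test. Trib3, a pseudokinase gene induced by ATF4, stood at 5.77, 5.49, 6.12 and 5.07 CPM in naive 1 to 4 and at 7.87, 10.3, 7.83 and 6.80 CPM in injury 1 to 4. Its groups did not overlap, yet its log2 fold change of 0.55 (SE 0.18) had an adjusted p of 0.0523 (0.0459 with DESeq2 and 0.0431 without injury 4). Trib3 passed the threshold under those 2 of 16 alternatives alone, and its adjusted p reached 0.34 in the others. Ddit4, the gene of the mTORC1 inhibitor REDD1, went the other way, with 113, 120, 126 and 105 CPM in naive and 91.5, 103, 104 and 78.2 CPM in injury libraries. Every injury library of Ddit4 was below every naive one (log2 fold change -0.30, SE 0.10, adjusted p = 0.0677). The fit paired by replicate number called it lower (adjusted p = 0.0288), where 9.01% of all tested genes were lower and 10.1% higher. Ppp1r15a and Ppp1r15b encode the inducible and the constitutive partner of the phosphatase that removes phosphate from eIF2α. Their log2 fold changes were -0.10 (SE 0.13) and -0.03 (SE 0.17), with adjusted p of 0.648 and 0.935, and their groups overlapped. Nupr1, a stress-induced chromatin protein gene, and Vldlr, a lipoprotein receptor gene, had 0.49 (SE 0.51) and 0.05 (SE 0.16).

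Among enzymes of amino acid and folate metabolism, the mitochondrial folate enzyme gene Mthfd2 changed most clearly (chromosome 6, 83305691 to 83325908). It stood at 53.7, 60.6, 62.8 and 64.4 CPM in naive 1 to 4 and at 117, 124, 124 and 108 CPM in injury 1 to 4. No naive library came near the injury range (log2 fold change 0.97, SE 0.09, 95% interval 0.78 to 1.17, adjusted p = 1.2e-05). Psat1, which makes phosphoserine on the path to serine, rose from 25.1, 32.6, 34.5 and 28.1 CPM to 46.4, 51.7, 45.5 and 41.1 CPM, without overlap (log2 fold change 0.62, SE 0.12, adjusted p = 0.00419). Asns, asparagine synthetase (chromosome 6, 7675169 to 7693254), went from 53.4, 57.6, 58.5 and 62.7 CPM to 77.3, 77.4, 78.5 and 73.4 CPM. Its injury libraries lay within a narrow band above all naive ones (log2 fold change 0.40, SE 0.09, adjusted p = 0.00594).

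The neighbours of these enzymes on the same paths were less clear. Shmt2, the mitochondrial serine hydroxymethyltransferase gene that feeds Mthfd2, went from 14.1 ± 4.56 to 20.3 ± 3.04 CPM, with groups that overlapped (log2 fold change 0.53, SE 0.21, adjusted p = 0.1). It was called without naive 2 (adjusted p = 0.018), the naive library with the highest value. Psph, the last enzyme of serine synthesis, was at -0.14 on the log2 fold change scale (SE 0.21, adjusted p = 0.688). Phgdh, the first enzyme of that path, did not pass the low count filter, with 0.131 to 0.273 CPM in naive and 0.307 to 0.869 CPM in injury libraries. Cth, which makes cysteine from cystathionine, had 1.20 (SE 0.53, adjusted p = 0.147) from 0.571 ± 0.329 to 1.33 ± 0.425 CPM. For the proline path, Aldh18a1 had 0.007 (SE 0.28, 95% interval -0.59 to 0.60), and Pycr1 was not tested, with at most 0.525 CPM in a library.

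All 6 amino acid transporter genes had a log2 fold change above 0, and 3 were called higher, against 47.8% above 0 and 10.1% called higher among all tested genes. Slc7a5, the light chain of the LAT1 carrier of large neutral amino acids (chromosome 8, 121881150 to 121907694), stood at 31.1, 24.98, 27.8 and 29.2 CPM in naive 1 to 4 and at 37.6, 45.8, 76.3 and 45.8 CPM in injury 1 to 4. Injury 3 was highest here as for Ddit3 (log2 fold change 0.86, SE 0.19, adjusted p = 0.00728, and 0.61 with adjusted p = 0.00369 without injury 3). Its partner Slc3a2, the heavy chain, had 178, 264, 214 and 196 CPM in naive and 273, 258, 353 and 237 CPM in injury libraries. The Slc3a2 groups overlapped through naive 2 (log2 fold change 0.40, SE 0.14, adjusted p = 0.0695). The adjusted p was 0.0426 in the fit paired by replicate number, 0.0287 with DESeq2 and 0.00955 without naive 2, injury 2 and injury 3 together. Slc3a2 passed the threshold under 5 of 16 alternatives, and its adjusted p reached 0.179 in the others.

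Of the cationic amino acid carriers, Slc7a1 rose from 184, 182, 177 and 194 CPM to 258, 255, 199 and 252 CPM. Injury 3 lay just above the naive range and the other injury libraries well above it (log2 fold change 0.39, SE 0.09, adjusted p = 0.0115). Slc7a3 rose from 12.8, 12.5, 15.2 and 13.2 CPM to 24.5, 26.8, 16.7 and 15.2 CPM. Injury 1 and injury 2 carried most of that difference (log2 fold change 0.64, SE 0.18, adjusted p = 0.0305). The Slc7a3 call did not survive the loss of naive 1, naive 2, naive 4, injury 1 or injury 2 singly (adjusted p = 0.0746 to 0.105), nor that of naive 2, injury 2 and injury 3 jointly (0.0783). The cystine importer Slc7a11 had 0.68 (SE 0.39, adjusted p = 0.26), and the sodium-coupled glutamine carrier Slc38a2 had 0.06 (95% interval -0.09 to 0.20, adjusted p = 0.612).

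**Figure D3:**
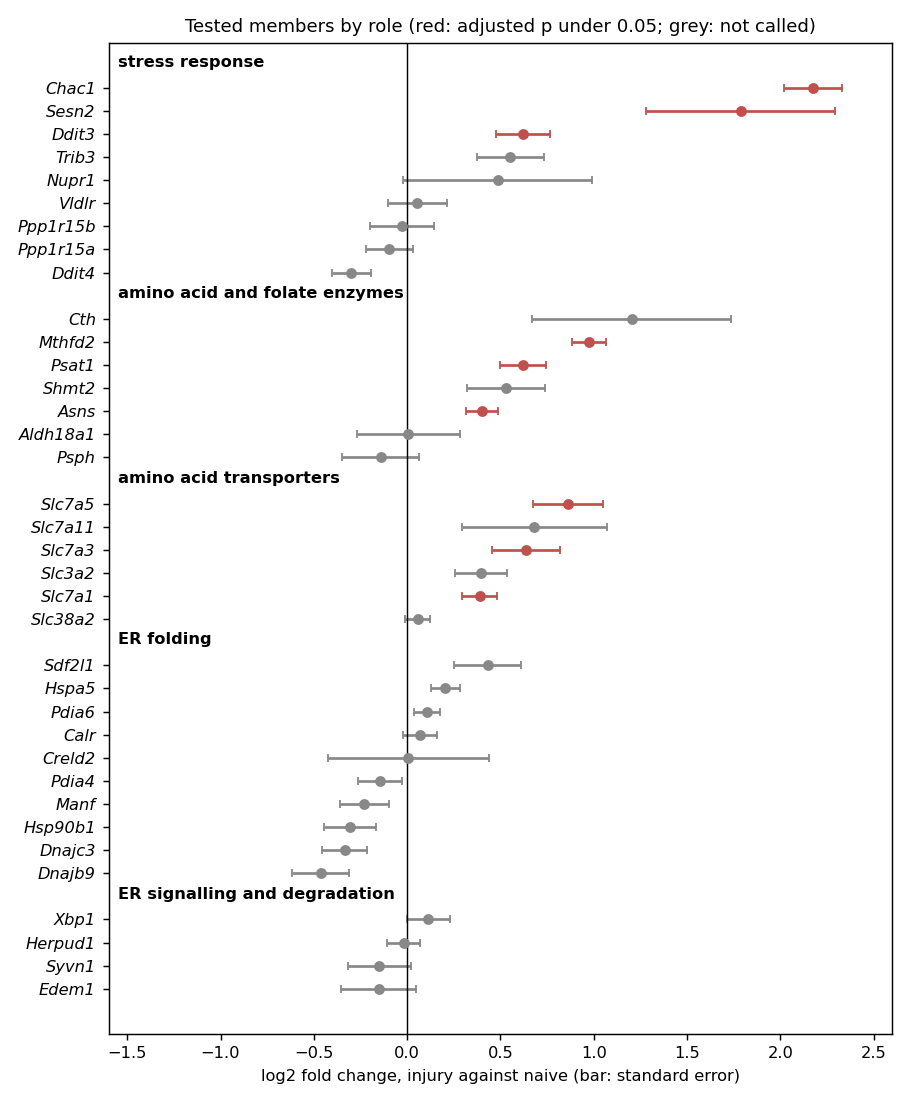
Log2 fold change of injury against naive (horizontal axis) with its standard error for the 36 tested members, ordered within roles. Red marks the 9 called genes, all among amino acid or stress genes, from 0.39 for Slc7a1 to 2.173 for Chac1; grey marks genes not called, with every ER gene among them, from -0.46 for Dnajb9 to 0.43 for Sdf2l1.

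Genes that charge tRNAs, a further known output of ATF4, rose in most cases. Of 20 aminoacyl-tRNA synthetase genes, 12 were called higher and none lower, against 10.1% higher among all tested genes; all 20 had a log2 fold change above 0, with a median of 0.38. Gars went from 188 ± 6.47 to 336 ± 49.3 CPM, or 0.84 as a log2 fold change (SE 0.10, adjusted p = 0.000105). Cars (0.96), Aars (0.70), Hars (0.55), Nars (0.43) and Yars (0.61) were the others with the smallest p. In the fit paired by replicate number Farsb and Rars were called as well (adjusted p = 0.0408 and 0.0463). Under 16 alternatives, Tars lost its call in 6 (0.0525 to 0.0794), Sars in 3 (0.0523 to 0.057) and Kars in 1 (0.0612). The other called synthetase genes kept theirs. RefSeq windows were matched for 13 of the 20, and 5 of them held the C/EBP-ATF core: Aars, Gars, Iars, Tars and Yars, of which Iars was not called (adjusted p = 0.0601).

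Of 17 genes that control eIF2 and ATF4, 3 rose and 1 fell (17.6% higher), beside 10.1% higher and 7.75% lower among all tested genes. Atf4 stood at 342, 267, 268 and 304 CPM in naive 1 to 4 and at 462, 557, 908 and 489 CPM in injury 1 to 4. Injury 3 was again far above the others (log2 fold change 1.03, SE 0.18, adjusted p = 0.00208). Its relative Atf5 went from 51.8 ± 6.08 to 95.9 ± 35.0 CPM, with injury 3 highest at 147 CPM (log2 fold change 0.89, adjusted p = 0.00838). Eif2b2, a subunit of the eIF2 exchange factor, rose by 0.51 on the log2 scale (adjusted p = 0.0231), a call lost without naive 1, naive 2 or naive 3 and without naive 2, injury 2 and injury 3 jointly (0.0532 to 0.0865). Nfe2l1, an ER-anchored transcription factor, fell by 0.25 (log2 fold change -0.25, adjusted p = 0.0287). That call was lost when any 1 naive library, injury 2, or naive 2, injury 2 and injury 3 jointly were left out (0.053 to 0.087). None of the eIF2α kinase genes was called, with log2 fold changes of -0.20 for Eif2ak1, 0.14 for Eif2ak2, -0.02 for Eif2ak3 and -0.13 for Eif2ak4.

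Further amino acid genes, 21 that are not among the 39, gave 4 higher and 1 lower of 17 tested (23.5% higher), beside 10.1% higher and 7.75% lower among all tested genes. Slc1a4, a carrier of alanine, serine and cysteine, stood at 47.7, 45.8, 49.9 and 45.8 CPM in naive and at 90.8, 110, 115 and 98.1 CPM in injury libraries, about as wide a gap as that of Mthfd2 (log2 fold change 1.13, SE 0.10, adjusted p = 5.7e-06). Slc38a1, a glutamine carrier, had 0.71 (adjusted p = 0.000168), Slc7a6 0.45 (0.0199) and Got2 0.34 (0.02). Slc7a6 lost its call without naive 3, without naive 4 and without naive 2, injury 2 and injury 3 jointly (0.0584 to 0.0924), and Got2 without naive 1, naive 4 or injury 2 (0.0551 to 0.0658). The alanine transaminase gene Gpt2 fell by 0.34 (log2 fold change -0.34, adjusted p = 0.0431, against 0.0545 in the fit paired by replicate number). Leaving out any single library but naive 4 ended the call (0.0515 to 0.191 over the 10 alternatives that lost it).

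**Figure D4:**
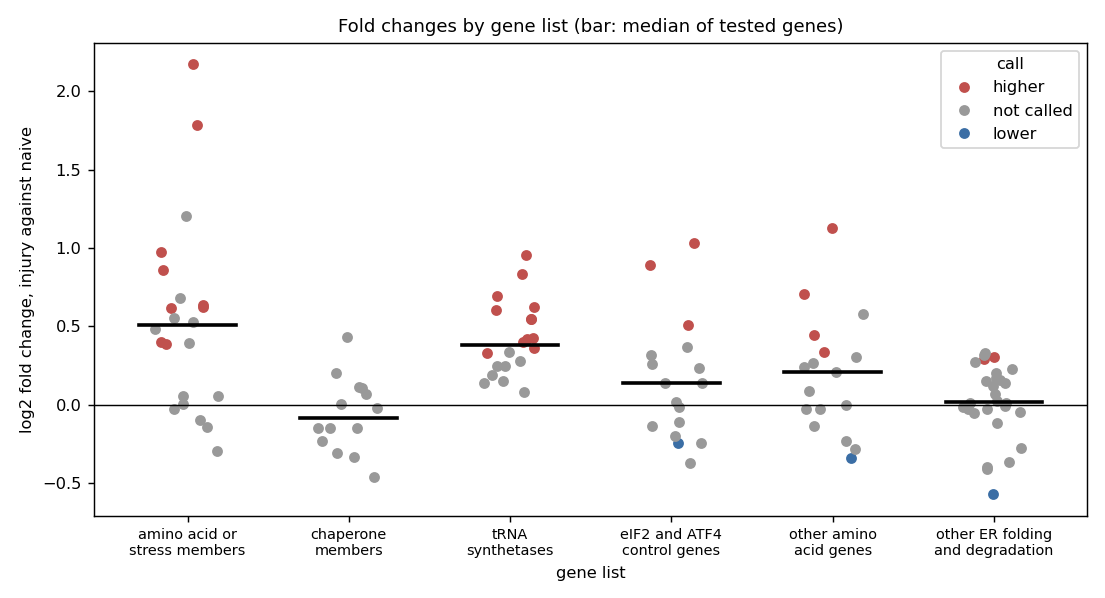
Log2 fold change of injury against naive (vertical axis) for the tested genes of each list, with the list median as a black bar; red marks genes called higher, blue genes called lower, grey genes not called. The medians were 0.51 for amino acid or stress members, -0.08 for chaperone members, 0.38 for tRNA synthetases, 0.14 for eIF2 and ATF4 control genes, 0.21 for other amino acid genes and 0.02 for other ER genes.

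ER chaperone genes and their partners showed no such pattern. Of the 15, 14 were tested and edgeR called none in either direction, against 17.8% of all tested genes. An unadjusted p under 0.05 was found for 5 of the 14, with 30.8% of all tested genes under that level. DESeq2 called 1 of them lower, and so did limma-voom, in both cases Dnajb9. The median log2 fold change was -0.08, with 6 genes above and 8 below 0. A missed threshold does not show that these genes did not differ.

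Hspa5, the ER chaperone BiP and the standard readout of the unfolded protein response (chromosome 2, 34771970 to 34777547), stood at 795, 814, 771 and 784 CPM in naive 1 to 4 and at 846, 925, 1020 and 855 CPM in injury 1 to 4. All injury libraries were above all naive ones, by a small margin (log2 fold change 0.20, SE 0.08, 95% interval 0.04 to 0.37, adjusted p = 0.0874). The estimate for every called member lies above that interval, the lowest being 0.39 for Slc7a1. A call itself selects larger estimates, so this order is partly set by the choice of called genes. Uncalled amino acid or stress genes lay above it (Cth, 1.20), inside it (Slc38a2, 0.06) and below it (Ddit4, -0.30). The 95% intervals of Slc7a1 (0.19 to 0.59) and Asns (0.22 to 0.58), among others, overlap that of Hspa5. Differences between genes were not tested. Sdf2l1, a BiP cofactor gene, had 0.43 (SE 0.18, adjusted p = 0.118) from 7.66 ± 1.03 to 10.4 ± 1.81 CPM. The lectin chaperone gene Calr had 0.07 (95% interval -0.13 to 0.27) and the disulfide isomerase gene Pdia6 0.11 (95% interval -0.05 to 0.26).

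Several folding genes lay on the lower side. Dnajb9, the BiP cochaperone ERdj4 and a target of spliced XBP1, stood at 61.2, 56.8, 61.3 and 64.9 CPM in naive 1 to 4 and at 52.3, 34.6, 34.9 and 55.7 CPM in injury 1 to 4. All injury libraries were below all naive ones, with injury 2 and injury 3 far below (log2 fold change -0.46, SE 0.15, adjusted p = 0.0567, against 0.0216 in the fit paired by replicate number). Dnajc3, a further cochaperone, had 80.9, 65.6, 77.4 and 73.7 CPM against 62.0, 57.6, 47.3 and 69.2 CPM, with injury 4 inside the naive range (log2 fold change -0.34, SE 0.12, adjusted p = 0.0736). Hsp90b1, the chaperone GRP94, had 135, 140, 124 and 138 CPM against 125, 123, 73.6 and 113 CPM, with injury 3 alone far below the rest and injury 1 inside the naive range (log2 fold change -0.31, SE 0.14, adjusted p = 0.16). Injury 2 and injury 3 also held fewer counts of the 1322 genes with under 25% GC in their last 100 bases, with median deviations from the injury mean of -0.16 and -0.19 on the log2 scale, as did naive 2 (-0.07) within its group. Dnajb9, Dnajc3 and Hsp90b1 have 39%, 30% and 24% GC there. Without these 3 libraries the log2 fold changes were -0.22, -0.24 and -0.16 (adjusted p = 0.133, 0.0889 and 0.227). Without injury 4 both cochaperones were called lower, with Dnajb9 at -0.59 (adjusted p = 0.0174) and Dnajc3 at -0.42 (0.0354). Dnajb9 passed the threshold under 7 of 16 alternatives and Dnajc3 under that 1 alone. The part of GC content in these values was not tested.

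Pdia4 (-0.15), Manf (-0.23), a secreted ER stress factor gene, and Creld2 (0.007) completed the folding genes, with adjusted p of 0.437, 0.261 and 0.993. Among signalling and degradation genes, Xbp1, the transcription factor gene spliced by IRE1, went from 60.1 ± 8.33 to 65.1 ± 6.64 CPM (log2 fold change 0.11, 95% interval -0.14 to 0.37, adjusted p = 0.547). A count of its 3′ end does not tell spliced from unspliced Xbp1. Herpud1 (-0.02), Edem1 (-0.15) and Syvn1 (-0.15), which act in the export and ubiquitination of misfolded ER proteins, had adjusted p of 0.911, 0.654 and 0.588. Ern1, the gene of IRE1 itself, was not tested, with 0 to 0.858 CPM.

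**Figure D5:**
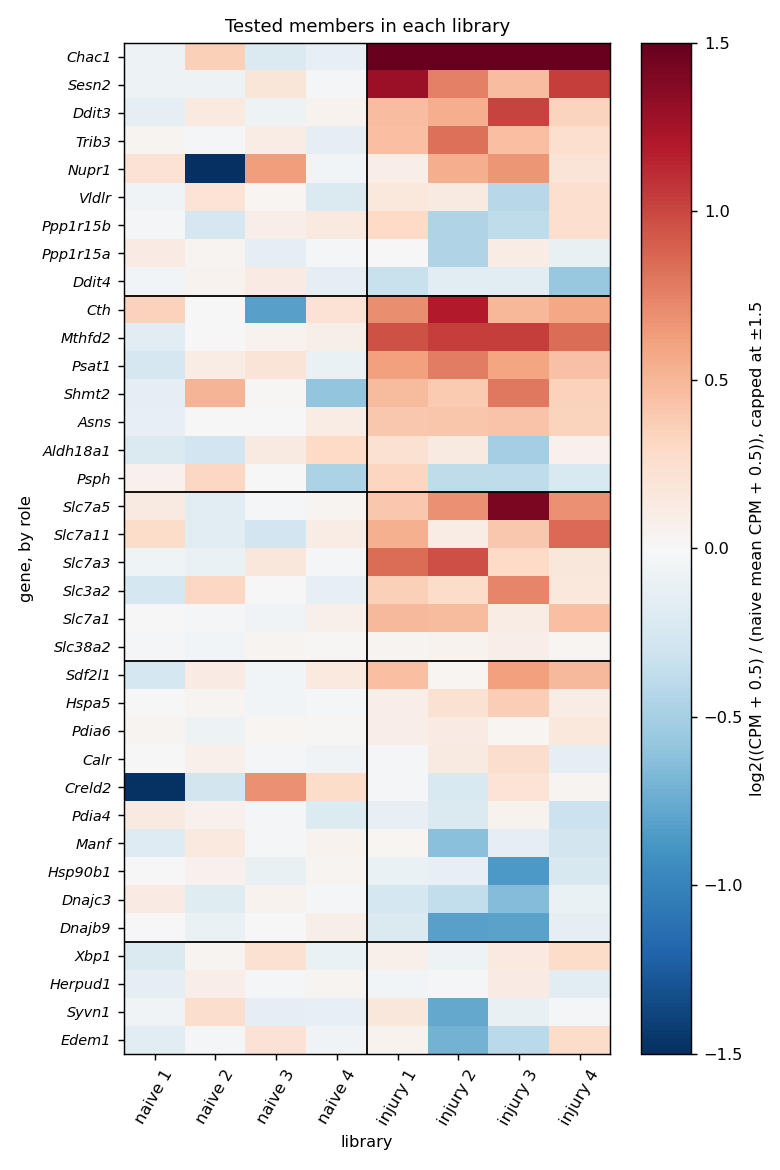
Each of the 36 tested members (rows, grouped by role) in each library (columns): log2 of CPM plus 0.5 over the naive mean plus 0.5, red above and blue below the naive mean, capped at 1.5 in either direction. Chac1 is at the cap in all 4 injury libraries, Dnajb9 is lowest in injury 2 and injury 3, and Hsp90b1 in injury 3.

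Of 29 further ER genes that are not among the 39, 28 were tested, with 2 higher, 1 lower (7.14% higher) and a median log2 fold change of 0.02, at or below the 10.1% higher and 7.75% lower among all tested genes. P4hb, protein disulfide isomerase, had 0.31 (adjusted p = 0.0197) and the translocon gene Sec61a1 0.29 (0.0399). P4hb lost its call without naive 1, naive 2 or injury 2 and without naive 2, injury 2 and injury 3 jointly (0.0513 to 0.0857). Sec61a1 lost it with upper quartile factors, without naive 1, naive 3, naive 4, injury 2 or injury 3, and without those 3 libraries jointly (0.0544 to 0.128). Crebrf, a negative regulator of the stress factor CREB3, fell from 68.8 ± 4.70 to 46.4 ± 3.84 CPM, or -0.57 as a log2 fold change (SE 0.10, adjusted p = 0.00143). The difference between the amino acid or stress group and the ER group was not tested as such, and counts and medians are given side by side.

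The injury libraries were not ordered alike for all members. Injury 3 was the highest of the 4 injury libraries for 15 of 36 tested members, among them Ddit3, Slc7a5, Slc3a2, Shmt2, Hspa5, Sdf2l1 and Calr, and injury 4 was the lowest for 14. Of the chaperone genes, 7 were lowest in injury 2. All 9 calls held without injury 3, and those of Chac1, Mthfd2, Psat1, Asns, Slc7a5, Ddit3 and Slc7a1 held under all 16 alternative settings.

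A deposited table of read counts in short genomic windows shows where transcripts of some members end. Windows without a repeat class and with at least 50 counts were found for 5 of the 12 members on the plus strand; genes on the minus strand were not used here. The strand of a window was read from the order of the table's rows, in which windows of each strand form a block. Of the 5719 counts of Chac1, 5699 lay in a single window, 80 bases before its annotated end (chromosome 2, 119354276 to 119354301). Ppp1r15b ended mainly 10 bases before its annotated end, with 95.5% ± 1.87 of its window counts in naive and 93.2% ± 2.56 in injury libraries. Dnajc3 used 7 windows, which held 66.8% of its gene counts, with the most distal at 48.5% ± 3.03 and 48.9% ± 2.08 of window counts. Its windows at 118979311 to 118979336 and 118979344 to 118979370 lie side by side, with 397 and 401 counts. Their counts were close in every library as well, from 25 and 25 in injury 2 to 69 and 65 in naive 2. Whether they mark the same end was not tested, so 7 windows need not mean 7 ends. Edem1 used its most distal window for 73.1% ± 4.94 in naive and 57.4% ± 13.0 in injury libraries, with the lowest shares in injury 2 (46.4%) and injury 3 (48.4%), and Vldlr its most distal for 29.6% ± 8.38 and 20.4% ± 4.51. These shares are descriptions without a test, the groups of Ppp1r15b, Dnajc3, Edem1 and Vldlr overlap, and a window's coordinates are as the table gives them.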

How the data were processed

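Per the labels' protocols, libraries were QuantSeq 3′ mRNA-seq REV. Per the submitters' processing notes, the tools were bcl2fastq (2.17), STAR and HTSeq and the build GRCm38 (mm10). Those notes do not say how strand or multiply mapped reads were handled. The authors deposited whole-number read counts per gene and per window, not normalized. Dates stand instead of gene names in 27 rows (0.133% to 0.164% of counts), which were kept.

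After filterByExpr, genes were compared by the quasi-likelihood test of edgeR 4.0.16 (TMM scaling, a term for group and no other) under R 4.3.3, over all 13770 tested genes, with 4 libraries per group. SEs are the log2 fold change over the root of its F. The fit was tried on simulated counts of this comparison (13596 genes tested), with 200 genes set to change. It recovered 35.3% of genes changed 1.5-fold, 60.3% of those changed 2-fold and 95.2% of those changed 4-fold. In the data a larger share, 17.8% of genes, was called, so recovery there can differ. DESeq2 1.42.0 and limma 3.58.1 (voom), other scalings and filters, single libraries left out and a block were tried. GC content is that of the last 100 bases of each gene's longest basic GENCODE vM21 transcript.

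Since the series' design text has each of 4 mice giving ganglia of both kinds, libraries with the same number were paired. That a number marks a mouse is an assumption: within pairs, deviations from the group mean correlated at 0.13, 0.22, 0.05 and 0.17. Between libraries of unlike number the correlations ran from -0.256 to 0.113. Naive 3 correlated more with injury 4 (0.113) than with injury 3 (0.048). P-values set the difference between groups against the spread between libraries. The main fit holds no term for mouse and so treats the libraries as independent. Members and lists were chosen with earlier results of these data known, and no p is given for a list. The genes named are all members, the called genes of each pathway list (up to 6 by p) and Atf3; other genes were chosen after their values were seen.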

Additional observations from a re-analysis of the deposited data

Results flagged for a closer look

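Among 78 groups of 4 libraries, 3 held a library far from the other 3 by Dixon's criterion, which chance meets in about 1 of 20 groups. Slc7a1 stood at 199 CPM in injury 3, against 252 to 258 CPM in the other injury libraries. Psph stood at 16.2 CPM in injury 1, against 9.81 to 10.9 CPM. Sesn2 stood at 0.383 CPM in naive 3, against 0.238 to 0.262 CPM.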

How the results depend on the processing

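Among 574 values of 36 tested members under 16 alternatives, 508 kept their direction and side of the threshold, 17 lost a call, 20 gained a call and 29, from 11 uncalled members, changed sign. With the replicate block (pairing by number) the amino acid or stress group had 9 genes called higher and 1 lower (Ddit4), and the chaperone group 1 lower (Dnajb9). Beyond the calls given in the report, the block changed no other call among members or pathway lists. The number higher in the amino acid or stress group was 7 to 11 under all alternatives, and that of chaperone genes 0.

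Called lower in the amino acid or stress group were 0 to 1 without single libraries and 1 without naive 2, injury 2 and injury 3 together. In the chaperone group this was 0 to 2 without single libraries and 1 with upper quartile factors, with DESeq2, with limma-voom or without the low count filter. Without single libraries, eIF2 and ATF4 control genes had 0 to 1 lower, other ER genes 0 to 3 higher and 1 to 2 lower, other amino acid genes 2 to 4 higher and 0 to 1 lower. Over all tested genes, the number lower without single libraries was between 689 (without naive 3) and 1082 (without injury 4), against 1067 in full. The largest numbers were 1240 with the replicate block, 1222 with DESeq2, 1198 with limma-voom and 1159 with upper quartile factors. Without naive 2, injury 2 and injury 3 together, 0 control genes were lower, 0 other ER genes higher and 0 other amino acid genes lower. Other ER genes had 1 higher with upper quartile factors, and other amino acid genes 0 lower without the low count filter or with the block.

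The log2 fold changes that changed sign belong to 11 uncalled genes, among them Nupr1, at 0.49 in full. Without single libraries they ran from -0.09 to 0.17 (Aldh18a1), -0.17 to 0.002 (Ppp1r15a), -0.16 to 0.09 (Ppp1r15b), -0.02 to 0.18 (Vldlr), -0.002 to 0.13 (Calr), -0.31 to 0.38 (Creld2), -0.07 to 0.03 (Herpud1) and -0.27 to 0.008 (Syvn1). Without naive 2, injury 2 and injury 3 together they were 0.2 for Psph and Ppp1r15b, -0.18 for Nupr1, -0.06 for Calr, -0.09 for Creld2, 0.16 for Edem1 and 0.17 for Syvn1. With upper quartile factors they were -0.004 for Aldh18a1 and -0.008 for Creld2. The cause was not tested. Extending genes by 1000 bases or not gave 21 windows either way.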
